A study of Homo sapiens with 16 samples.

Results

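The nuclear receptors followed here are 10 genes whose products bind small lipophilic hormones or related ligands, or act without a known physiological one, and control transcription from DNA. They comprise the retinoic acid receptors RARA, RARB and RARG, the retinoid X receptors RXRA and RXRB, the vitamin D receptor VDR, the glucocorticoid receptor NR3C1, the orphan receptors NR2F2 and NR2F6, and the fatty acid sensor PPARD. The members were chosen by gene name, and each of the 10 names had 1 row among the 58721 genes of the deposited tables. RNA was sequenced from the 3' ends of transcripts in 16 libraries of 2 human bladder cancer cell lines. RT112, used as a luminal model, was grown in RPMI with serum, and SCaBER, used as a basal model, in DMEM with serum, so that line and medium cannot be told apart. In each line, cells received 10 nM of siControl.1, siControl.2, siFOXA1.1 or siFOXA1.2, small interfering RNAs of which the last pair targets the transcription factor FOXA1, a pioneer factor of luminal urothelium. Every siRNA had 2 libraries per line, which the labels number by experiment batch, and all cells, controls included, were transfected with a lipid reagent.

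Nuclear receptors share a DNA-binding domain of zinc fingers and a ligand-binding domain that exchanges corepressors for coactivators when a ligand docks. The RAR proteins, VDR and the PPAR proteins bind DNA as heterodimers with an RXR protein, whereas the glucocorticoid receptor waits in the cytoplasm in a complex with heat shock chaperones and binds DNA as a homodimer. In urothelium, retinoids hold the epithelium in its transitional state, and their loss gives squamous metaplasia, while PPARG, a relative of PPARD, drives late differentiation together with FOXA1 and GATA3.

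Library totals ran from 6622473 to 7604581 counts in RT112 and from 4528513 to 6914951 in SCaBER, so that a floor of 3 counts stood at 0.394 to 0.662 CPM (the count of a gene scaled to a fixed library total). Of 9 luminal markers, 7 exceeded the floor in the RT112 controls, where KRT20 and UPK3A stayed at 0, and their summed level was 4747 to 5826 CPM against 760 to 1016 in SCaBER. The 7 basal or squamous markers summed to 2207 to 3705 CPM in the SCaBER controls and to 326 to 482 in RT112, where DSG3 was at 0. Only KRT16 among them had a higher mean in RT112, at 56 ± 10.5 CPM against 30.4 ± 16.3 in SCaBER (SD, n = 4 each). Of 6 fibroblast markers, 2 exceeded the floor in the RT112 controls and 3 in SCaBER, with sums of 84.6 to 137 and 10.7 to 38.8 CPM, most of it from LUM in RT112 (97.6 ± 25.2 CPM, SD, n = 4), while COL3A1 and DCN were at 0 in both lines. The 3 endothelial markers summed to 2.92 to 6.95 and 0 to 2.87 CPM, and the 3 leukocyte markers to at most 0.263 CPM, with PTPRC and CD3E at 0. FOXA1 itself had 35, 29.4, 18.2 and 28.4 CPM in the RT112 controls, 1.32 and 3.24 under siFOXA1.1, and 9.18 and 16 under siFOXA1.2. The log2 fold change was -3.44 for siFOXA1.1 (SE 0.47, edgeR adjusted p 2.19e-05) and -1.10 for siFOXA1.2 (SE 0.39, edgeR adjusted p 0.205), so the depletion passed the test with siFOXA1.1 alone. In SCaBER it was between 0 and 2.43 CPM in all 8 libraries, so the knock-down could not be assessed there. Mitochondrial genes took 25.7 to 28.2% of the counts in RT112 under siFOXA1.1 and 18 to 21.2% in the other RT112 libraries. Leaving these genes out moved none of the receptor calls, a check added after the data had been seen.

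Promoter windows were examined for the receptors because FOXA1, the depleted factor, binds a known DNA core. In other bladder cancer lines the study reported FOXA1 peaks mostly away from promoters, and such sites were not examined here. RefSeq windows on GRCh38.p14 were found for 8 of the 10 members, 22 windows in all, and not for VDR and NR2F6. In the 250 bases before each start, the cores TGTTTAC and TGTTTGC, read on both strands, were present in 2.98% and 3.23% of all 35116 windows. Among the members, 1 of 22 windows held TGTTTAC and 0 held TGTTTGC. The AGGTCA hexamer, the core to which most of these receptors bind, was in 2 of 22 member windows, of RARA and RARB, and in 12.1% of all windows. The related hexamer AGTTCA was in 5 of 22 windows, of NR2F2, NR3C1 and RARB, and in 8.8% of all windows. GC boxes of the letters GGGCGG were in 14 of 22 member windows and 42.6% of all windows. Some of the member windows lie inside the gene, before an inner start. The matches describe letters and not binding.

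RXRA is shown because it is the receptor whose fall under siFOXA1.1 passed under every setting tried. Both of its windows lie on the plus strand, the outer at chr9:134326205-134326454 with 89.2% G and C and the inner at chr9:134379045-134379294 with 64.4%. Capitals mark GGGCGG, which had 6 matches in the outer window, some overlapping, and 1 in the inner.
RXRA outer start: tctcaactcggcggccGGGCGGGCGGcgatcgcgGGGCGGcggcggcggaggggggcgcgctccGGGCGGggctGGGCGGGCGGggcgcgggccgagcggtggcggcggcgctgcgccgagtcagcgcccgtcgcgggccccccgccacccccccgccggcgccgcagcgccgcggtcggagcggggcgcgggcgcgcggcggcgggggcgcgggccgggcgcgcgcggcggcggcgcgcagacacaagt
RXRA inner start: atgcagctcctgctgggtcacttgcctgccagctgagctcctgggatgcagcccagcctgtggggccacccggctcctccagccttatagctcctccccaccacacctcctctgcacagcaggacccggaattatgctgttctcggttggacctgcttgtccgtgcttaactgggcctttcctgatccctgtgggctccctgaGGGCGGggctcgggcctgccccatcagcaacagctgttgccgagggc
Neither window held a FOXA core or one of the hexamers.

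The FOXA core match and 1 hexamer match in each of NR2F2, RARA and RARB are shown as 30-base stretches, with the match in capitals. That of NR3C1 lies at chr5:143403324-143403353 on the minus strand, and the match inside it begins 59 bases before the start. Those of NR2F2 at chr15:96332371-96332400, RARA at chr17:40308938-40308967 and RARB at chr3:25340738-25340767 are on the plus strand. The stretches of NR3C1, NR2F2 and RARB lie inside the span of their genes, before an inner start. The bases of the NR2F2 window read as codons of its zinc fingers, so that match is in coding sequence.
NR3C1 with TGTTTAC: aaaggggcggcTGTTTACttccttttttta
NR2F2 with AGTTCA: agcactacggccAGTTCAcgtgcgagggct
RARA with AGGTCA: ttctcctgtttcAGGTCAtcctatcctcga
RARB with AGGTCA: caagaaggaagtAGGTCAaagcctggcaag
Windows of the same gene overlap in part, so the counts of windows are not counts of independent promoters.

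The first comparison asks how much of each receptor the unperturbed lines carry. In TPM, which divides by gene length, the RT112 controls ranked NR2F2 first at 123 ± 7.49, followed by NR2F6 at 105 ± 12.8 and RXRA at 63.3 ± 4.32 (SD, n = 4 each). NR3C1 (16.1 ± 4.39), RARG (14.9 ± 3.60), PPARD (10.5 ± 1.74) and VDR (8.65 ± 2.43) followed, and RARA was lowest of the detected members at 3.11 ± 2.01 TPM. The ranges of neighbours in this order overlapped except between NR2F6 and RXRA and between RXRA and NR3C1, as well as between RARA and the undetected members. Because the kit reads transcript ends, a gene's count may depend little on its length, so the order holds on the TPM scale only. In CPM, which takes no account of length, RXRA had 358 ± 12.5 and NR2F6 144 ± 21.9 in RT112 (SD, n = 4 each), the reverse of their TPM order. In SCaBER the order was NR2F6 at 183 ± 21.3, NR3C1 at 38.4 ± 1.79, NR2F2 at 37.4 ± 2.40, RXRA at 34.5 ± 8.06, RARG at 18.7 ± 3.71, VDR at 13.6 ± 1.97, PPARD at 6.23 ± 1.87 and RARA at 3.21 ± 1.19 TPM (SD, n = 4 each). On the TPM scale NR2F6 stood apart there from the next gene, as did RXRA from RARG and VDR from PPARD. In CPM, RXRA in SCaBER (150 ± 38.2) had a higher mean than NR3C1 (138 ± 3.77) and NR2F2 (94.5 ± 5.78, SD, n = 4 each). Its CPM range of 115 to 198 overlapped that of NR2F6, at 158 to 223.

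**Figure D1:**
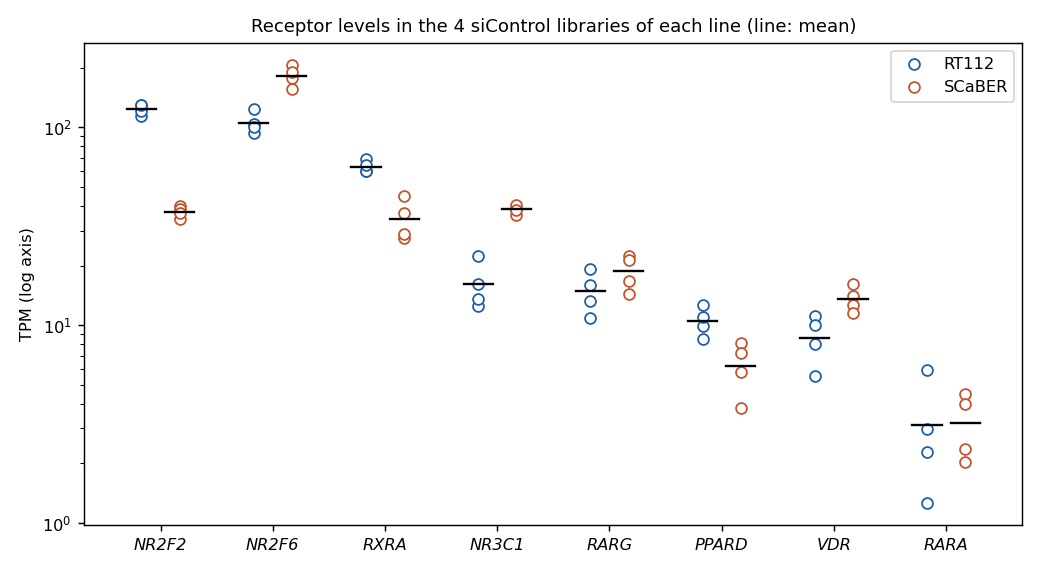
TPM (log axis) of the 8 detected receptors in the 4 siControl libraries of RT112 (blue) and SCaBER (orange), with the mean as a bar, ordered by their RT112 mean. NR2F2 sits near 123 TPM in RT112 and 37.4 in SCaBER, while RARB and RXRB are absent from the axis because they were at 0.

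Set side by side across lines, 4 of 8 tested receptors differed past the threshold, an adjusted p below 0.05, with 3 higher and 1 lower in RT112. Of all 12309 genes tested 43.4% did so (21.2% higher and 22.2% lower), so the share among the receptors is near the background. NR2F2 (chr15:96326046-96340263), which takes part in mesenchymal and venous development, had 437, 409, 361 and 417 CPM in the RT112 controls and 89.2, 93.7, 103 and 92.5 in the SCaBER controls. The lines did not overlap, and the log2 difference was 2.12 (SE 0.13, edgeR adjusted p 9.4e-09). RXRA (chr9:134326455-134440585), the shared heterodimer partner, was higher in RT112 by 1.26 (SE 0.17, edgeR adjusted p 2.22e-05), at 348 to 376 CPM against 115 to 198. PPARD (chr6:35342558-35428178), which responds to fatty acids, was higher by 1.16 (SE 0.29, edgeR adjusted p 0.00441), at 19.9 to 28.1 CPM against 6.82 to 13.6.

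NR3C1 (chr5:143277931-143435512), the receptor for cortisol, was the member lower in RT112. It had 60.4, 65.5, 72.8 and 102 CPM there and 133, 140, 141 and 136 CPM in SCaBER, with a log2 difference of -0.86 (SE 0.16, edgeR adjusted p 0.000579). NR2F6 (chr19:17231883-17245919), a repressor of the COUP-TF family, had 123 to 174 CPM in RT112 and 158 to 223 in SCaBER, and its difference of -0.39 (SE 0.16, edgeR adjusted p 0.0594) did not pass. It did with DESeq2 (-0.40, adjusted p 0.0437), library totals (-0.41, adjusted p 0.0423) and limma on log2(TPM + 1) (-0.79, adjusted p 0.000521). The differences of RARA (0.37, SE 0.53), RARG (0.08, SE 0.24) and VDR (-0.26, SE 0.24) did not pass and had adjusted p from 0.408 to 0.817 in edgeR, while limma on TPM called VDR lower in RT112 (-0.62, adjusted p 0.0454).

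RARB (chr3:24829321-25597932), which retinoic acid induces in many cells, and RXRB (chr6:33193588-33200853) are the members without a measurable level. RXRB had 0 counts in all 16 libraries. RARB had 13 counts (1.90 CPM) in RT112 siFOXA1.1 replicate 1 and 0 in the other 15 libraries. A count of 0 allows up to 0.394 to 0.662 CPM, depending on the library, where counting error alone is considered. RXRB lies in the major histocompatibility region, where 11 of the 33 protein-coding genes that start within 500 kb of it also had no count in any library, against 24.3% of all 18550 such genes matched by symbol. Its near neighbours differed, with 1715 counts over the 16 libraries for SLC39A7 and 129067 for RPS18, and 0 for COL11A2 and B3GALT4. Whether reads of RXRB were lost in alignment or counting was not tested, so its 0 sets no limit on the true level. Both undetected members failed the filter on low counts and entered no test.

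The second comparison asks what each FOXA1 siRNA did to the receptors of RT112. Under siFOXA1.1, 2 of the 8 tested receptors passed against both controls, RXRA lower and VDR higher, while 32.6% of all 11986 genes passed. A count of 2 in 8 does not exceed that background. Under siFOXA1.2 the 1 member that passed was NR2F2, higher, where 2.04% of all genes passed. The median change over the tested receptors was -0.20 under siFOXA1.1 and -0.05 under siFOXA1.2, beside -0.01 and 0.01 over all genes.

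RXRA had 348 and 351 CPM under siControl.1, 376 and 357 under siControl.2, 238 and 153 under siFOXA1.1, and 398 and 349 under siFOXA1.2. Both siFOXA1.1 libraries lay below all 6 others. Its log2 fold change under siFOXA1.1 was -0.74 (SE 0.14, edgeR adjusted p 0.000488), and under siFOXA1.2 it was 0.08 (SE 0.13, adjusted p 0.903). The siRNAs differed from each other by -0.82 (SE 0.16, edgeR adjusted p 0.000739). Within batch 1 the CPM of siFOXA1.1 was -0.61 from the mean of the controls on the log2 scale, and within batch 2 it was -1.21. Without siFOXA1.1 replicate 2 the fall was -0.49, with an edgeR adjusted p of 0.0115.

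The same libraries had a lower sum of luminal markers. The summed level was 3040 to 3344 CPM under siFOXA1.1 against 4747 to 5826 in the controls and 4138 to 4390 under siFOXA1.2. Most of the control sum was KRT19 (3135 ± 226 CPM) and KRT18 (1283 ± 158 CPM, SD, n = 4 each), and the list includes FOXA1 itself. The fall of the sum need not hold for each marker. The basal markers summed to 469 to 601 CPM under siFOXA1.1 and to 574 to 672 under siFOXA1.2, against 326 to 482 in the controls. Whether the markers had a part in the fall of RXRA or in the rise of NR2F2 was not tested. A fit without the mitochondrial genes gave -0.75 for RXRA (edgeR adjusted p 0.000378). In such libraries a lower share can reflect fewer transcripts per cell or fewer cells that express the gene, and these cannot be told apart.

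NR2F2 had 437 and 409 CPM under siControl.1, 361 and 417 under siControl.2, 306 and 345 under siFOXA1.1, and 567 and 612 under siFOXA1.2. Both siFOXA1.2 libraries stood above all others, and both siFOXA1.1 libraries below them. Its rise under siFOXA1.2 was 0.56 (SE 0.10, edgeR adjusted p 0.00687), and it held within each batch, at 0.51 and 0.57. Without siFOXA1.2 replicate 1 the adjusted p was 0.0626, and without replicate 2 it was 0.188, with values of 0.61 and 0.50. Under siFOXA1.1 the value was -0.18 (SE 0.11, edgeR adjusted p 0.221), and the difference between the siRNAs was -0.74 (SE 0.12, adjusted p 0.000233). When only library totals were used to scale, the median gene under siFOXA1.1 shifted to -0.14 and NR2F2 was called lower at -0.32 (edgeR adjusted p 0.0302). On that scale 1452 genes were higher and 2482 lower under siFOXA1.1, against 1870 and 2033 with TMM.

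VDR (chr12:47841537-47904994), the receptor for calcitriol, had 16.4 and 24.0 CPM under siControl.1, 30.9 and 28.4 under siControl.2, 52 and 24.5 under siFOXA1.1, and 35.4 and 28.4 under siFOXA1.2. One siFOXA1.1 library stood above the others and the second lay within the control range. The fitted change was 0.77 (SE 0.29, edgeR adjusted p 0.0484), and 0.72 with an adjusted p of 0.0682 when the replicate number was added as a block. Within batch 1 the log2 ratio was 1.14 and within batch 2 it was -0.10. Without siFOXA1.1 replicate 1 the change was 0.15 (edgeR adjusted p 0.777), and it passed in 2 of the 8 fits that left out 1 library. Those without siControl.1 replicate 1, siControl.2 replicate 1, siControl.2 replicate 2, siFOXA1.2 replicate 1 or siFOXA1.2 replicate 2 gave adjusted p from 0.0608 to 0.154.

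**Figure D2:**
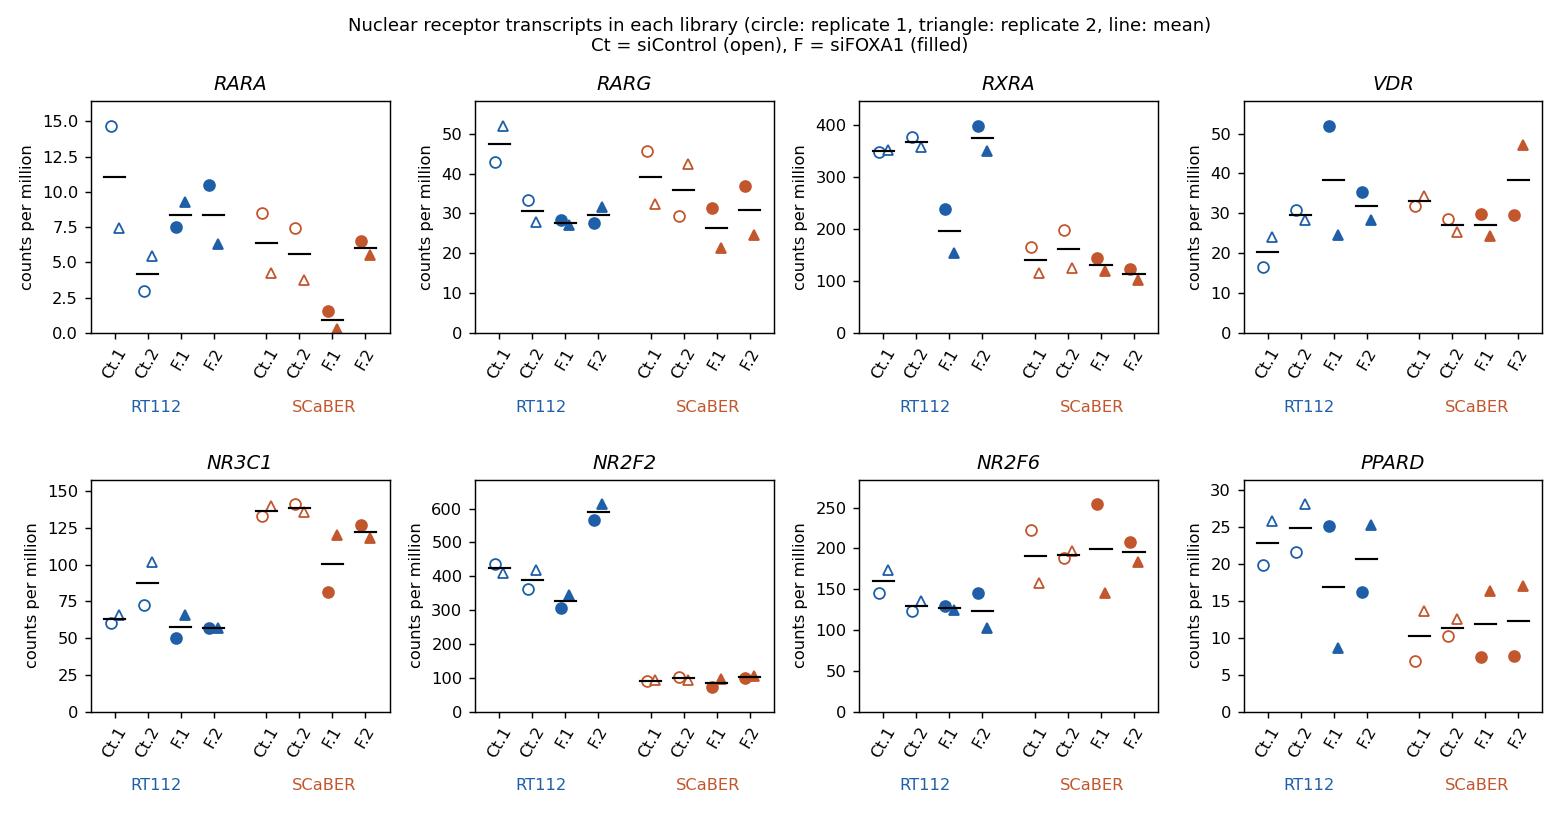
Each panel plots 1 receptor in CPM (axis from 0) for the 2 libraries of every siRNA, RT112 in blue and SCaBER in orange, with circles for replicate 1, triangles for replicate 2, and the group mean as a bar. RXRA is lowest among RT112 libraries under siFOXA1.1 (238 and 153 CPM), NR2F2 highest under siFOXA1.2 (567 and 612 CPM), and the VDR rise comes from 1 library at 52 CPM.

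The remaining receptors of RT112 did not pass under either siRNA. RARA (chr17:40309180-40357643) and RARG (chr12:53210569-53232209), which bind retinoic acid, had log2 fold changes of 0.44 (SE 0.51) and -0.33 (SE 0.24) under siFOXA1.1, and of 0.32 (SE 0.51) and -0.35 (SE 0.24) under siFOXA1.2. Those of NR3C1 were -0.22 (SE 0.19) and -0.36 (SE 0.19), of NR2F6 -0.04 (SE 0.15) and -0.20 (SE 0.15), and of PPARD -0.37 (SE 0.37) and -0.18 (SE 0.37) under siFOXA1.1 and siFOXA1.2. PPARD had 25.2 and 8.69 CPM under siFOXA1.1, and without replicate 1 its change was -1.30 (edgeR adjusted p 0.027). As a measure of background, the siControl siRNAs differed by 1.47 for RARA (SE 0.62), 0.69 for RARG (SE 0.27) and 0.38 for NR2F6 (SE 0.18). These had unadjusted p of 0.0282, 0.0189 and 0.0458 where 13.2% of all genes had one under 0.05, and 0 of 8 passed after adjustment in edgeR or DESeq2, where 2.36% did. The values of RXRA and NR2F2 between the controls were -0.01 (SE 0.16) and 0.19 (SE 0.12).

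Setting both siFOXA1 siRNAs of RT112 together, 0 of 8 receptors passed in edgeR, where 0.108% of all genes did. DESeq2 called 0, and 0 had an unadjusted p under 0.05, which 12.1% of all genes had. Between siFOXA1.1 and siFOXA1.2, RXRA and NR2F2 passed, both lower under siFOXA1.1, and 28.1% of all genes did.

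The third comparison repeats this in SCaBER, where FOXA1 was near the floor. None of the 8 tested receptors passed under siFOXA1.1 in edgeR, while 9.26% of all 11902 genes did. An unadjusted p under 0.05 was found for 2 of them and for 23.0% of all genes, and DESeq2 called RARA. RARA had 51, 27, 46 and 17 counts in the controls, 8 and 2 under siFOXA1.1, and 42 and 35 under siFOXA1.2. The 2 counts are under the floor of 3, and both siFOXA1.1 libraries lay below all others. The change was -2.70 (SE 0.98, edgeR adjusted p 0.109), and -2.71 with an adjusted p of 0.021 in DESeq2. NR3C1 had 133 to 141 CPM in the controls and 81.1 and 120 under siFOXA1.1, and its value was -0.43 (SE 0.20, unadjusted p 0.0489, edgeR adjusted p 0.215). The summed level of the luminal markers was 444 to 509 CPM in these libraries against 760 to 1016 in the controls. Most of the control sum was KRT18 (838 ± 99.1 CPM, SD, n = 4), so the fall need not hold for each marker. The part of the markers in the values was not tested.

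The other receptors of SCaBER did not pass under siFOXA1.1, with values from -0.47 for RARG (SE 0.32) to 0.16 for PPARD (SE 0.51). RXRA had 164, 115, 198 and 124 CPM in the controls and 143 and 119 under siFOXA1.1, a change of -0.16 (SE 0.24, edgeR adjusted p 0.767). The value for NR2F2 was -0.12 (SE 0.20) and that for VDR -0.11 (SE 0.29). Single libraries left the control range, among them RARG with 21.4 CPM against 29.4 to 45.8 and NR2F2 with 73.5 against 89.2 to 103, while the second library of each lay within it. Under siFOXA1.2 none passed in edgeR or DESeq2, beside 0.0420% of all genes, with 0 at an unadjusted p under 0.05, beside 5.33%. The changes there lay between -0.39 for RXRA (SE 0.24) and 0.37 for VDR (SE 0.29). When both siFOXA1 siRNAs were pooled 0 receptors passed in edgeR and DESeq2, beside 0.00840% of all genes, with 0 at an unadjusted p under 0.05, beside 8.90%. Between the siRNAs, where 4.85% of all genes passed, 0 receptors did in edgeR or DESeq2, and 1, RARA, had an unadjusted p under 0.05, beside 18.2%. The control siRNAs gave 0 receptors in edgeR and DESeq2, beside 0.0672% of all genes, and 0 at an unadjusted p under 0.05, beside 6.64%.

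**Figure D3:**
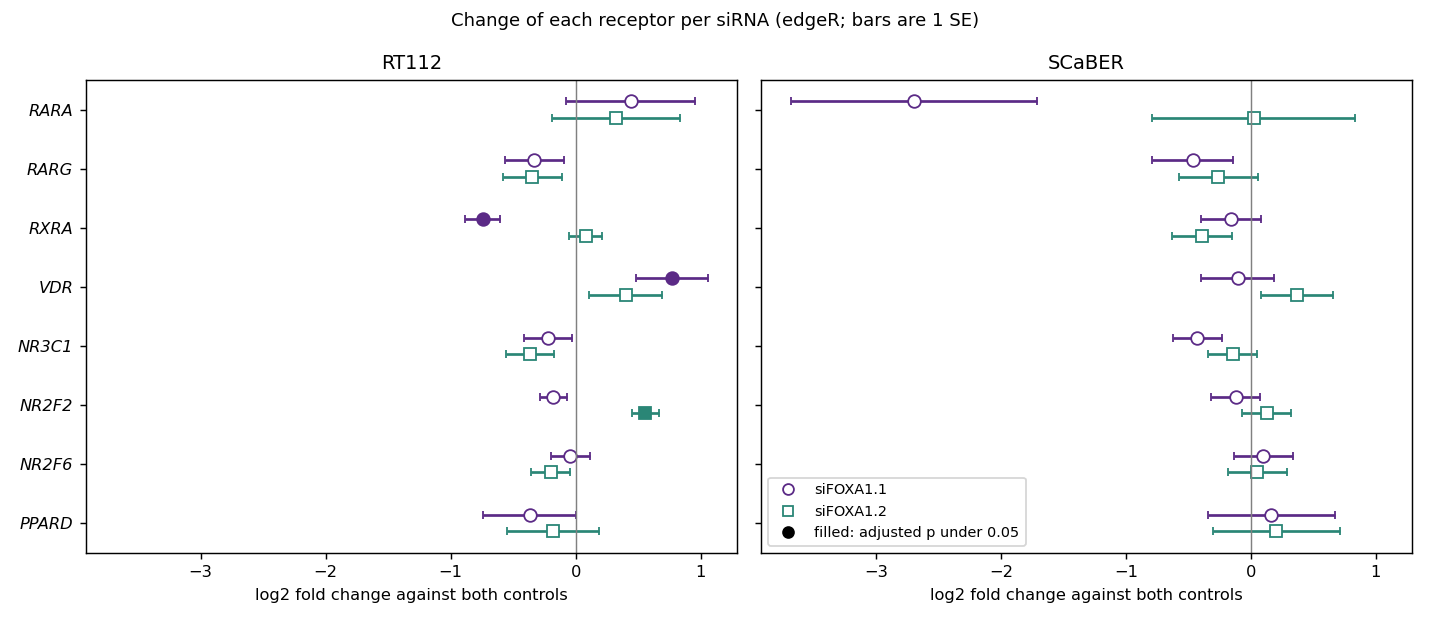
Log2 fold change against both controls for the 8 tested receptors, with bars of 1 SE, under siFOXA1.1 (circles) and siFOXA1.2 (squares) in RT112 (left) and SCaBER (right). Filled symbols mark adjusted p under 0.05, which are RXRA and VDR under siFOXA1.1 and NR2F2 under siFOXA1.2, all in RT112.

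Whether the lines responded differently was tested directly over all 16 libraries. The change of RXRA under siFOXA1.1 was lower in RT112 than in SCaBER by -0.60 (SE 0.29, edgeR adjusted p 0.32), and that of VDR higher by 0.86 (SE 0.44, adjusted p 0.349). RARA differed by 3.14 (SE 1.00, edgeR adjusted p 0.0966), and DESeq2 called it at 3.18 (adjusted p 0.0328). Without SCaBER siFOXA1.1 replicate 1 the RARA difference was 4.70, with an edgeR adjusted p of 0.0495. Under siFOXA1.2 the difference for NR2F2 was 0.43 (SE 0.20, unadjusted p 0.047, adjusted p 0.809). In all, 0 of 8 receptors passed for siFOXA1.1 in edgeR, beside 3.14% of all 13701 genes, with 1 at an unadjusted p under 0.05, beside 16.2%. For siFOXA1.2 it was 0 in edgeR and DESeq2, beside 0.0438%, with 1 at an unadjusted p under 0.05, beside 6.05%. The changes of RXRA, VDR and NR2F2 that passed in RT112 are therefore not shown to differ from those in SCaBER.

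The genes around the receptors were taken from lists of ligands, enzymes, partners and response genes. In the retinoid list (17 genes of uptake, synthesis, binding and breakdown), 3 of 10 tested genes fell in RT112 under siFOXA1.1 and 0 rose, with a median of -0.57 beside -0.01 over all genes. That is near the 32.6% of all genes that passed in this comparison, the background for each list count under siFOXA1.1 in RT112. ALDH1A3, which makes retinoic acid, had 265 ± 59.4 CPM in the RT112 controls (SD, n = 4), 180 ± 16.0 under siFOXA1.1 and 150 ± 7.01 under siFOXA1.2 (SD, n = 2 each). Its changes were -0.40 (SE 0.12, edgeR adjusted p 0.0171) and -0.78 (SE 0.12, adjusted p 0.00163), beside -0.46 (SE 0.14, adjusted p 0.0968) between siControl.1 and siControl.2. In SCaBER it fell from 81.2 ± 9.98 to 27.1 ± 6.88 CPM under siFOXA1.1 by 1.54 in log2 units (SE 0.27, edgeR adjusted p 0.00213), and under siFOXA1.2 it had 63.9 ± 9.83 CPM.

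DHRS3, which returns retinal to retinol, and DHRS9, which oxidises retinol, completed the list in RT112. DHRS3 fell by 0.75 under siFOXA1.1 (SE 0.18, edgeR adjusted p 0.00419), and DHRS9 by 0.85 (SE 0.16, adjusted p 0.000375). In SCaBER, 3 of 9 tested genes of this list fell under siFOXA1.1, ALDH1A3, CRABP2 and DHRS9, where 9.26% of all genes passed. CRABP2, which carries retinoic acid to its receptors, went from 131 ± 40.5 to 73.9 ± 20.9 CPM, a change of -0.76 (SE 0.22, edgeR adjusted p 0.0452), and its difference between the SCaBER control siRNAs was -0.71 (SE 0.25, adjusted p 0.605). DHRS9, named here after its values were seen, was at 2.96 to 4.20 CPM in the SCaBER controls and had 0 counts in both siFOXA1.1 libraries, which allows up to 0.568 and 0.434 CPM, with an edgeR adjusted p of 0.0298. None passed in SCaBER under siFOXA1.2, beside 0.0420% of all genes.

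The retinoic acid response genes moved in both directions. Of 5 tested in RT112 under siFOXA1.1, RARRES3, an induced phospholipase, rose by 1.07 (SE 0.32, edgeR adjusted p 0.0163) and DHRS3, which this list shares with the former, fell. RARRES3 differed by 1.03 (SE 0.39, adjusted p 0.235) between the control siRNAs. Of 8 in SCaBER, CRABP2, also shared, was the 1 that fell, and 0 rose, where 9.26% of all genes passed. The list medians were -0.74 in RT112 and -0.21 in SCaBER. Between the control libraries of the lines, CRABP2 had 8.54 ± 4.14 CPM in RT112 and 131 ± 40.5 in SCaBER, and DHRS3 had 178 ± 39.8 and 28.3 ± 9.90 (SD, n = 4 each), differences of -3.93 (SE 0.32) and 2.66 (SE 0.25), both past the threshold in edgeR.

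Coregulators, which receptors recruit, gave 3 higher and 5 lower of 15 tested in RT112 under siFOXA1.1 (list median -0.14), beside 32.6% of all genes. The corepressor NRIP1 fell by 0.94 (SE 0.12, edgeR adjusted p 1.44e-05). NCOA1, a coactivator, fell by 0.98 (SE 0.29, adjusted p 0.0151), and its relative NCOA2 rose by 0.97 (SE 0.24, adjusted p 0.0038). Under siFOXA1.2, NCOA3, a further coactivator, was the 1 of 15 that passed, beside 2.04% of all genes. It rose from 127 ± 5.38 to 178 ± 7.56 CPM, by 0.51 (SE 0.13, edgeR adjusted p 0.0454). In SCaBER 0 of 15 passed under either siRNA in edgeR, beside 9.26% of all genes under siFOXA1.1 and 0.0420% under siFOXA1.2.

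Among 38 other nuclear receptors, 15 were tested in RT112, and 2 rose and 2 fell under siFOXA1.1 (list median -0.14), a smaller share than the 32.6% of all genes. PPARA, which controls fatty acid oxidation, fell by 1.52 (SE 0.35, edgeR adjusted p 0.0024), while PPARG, the urothelial differentiation factor, dropped by 0.69 (SE 0.19, adjusted p 0.00845). ESRRA, a regulator of mitochondrial genes, rose by 0.68 (SE 0.19, edgeR adjusted p 0.0108), and NR1H2, an oxysterol receptor, by 0.56 (SE 0.21, adjusted p 0.0463). In SCaBER 0 of 16 passed under either siFOXA1 siRNA, beside 9.26% of all genes under siFOXA1.1 and 0.0420% under siFOXA1.2. Of 16 tested between the control libraries of the lines, 7 were higher and 1 lower in RT112, where 21.2% and 22.2% of all genes were, among them PPARG at 78.1 ± 6.35 against 22.8 ± 7.40 CPM (SD, n = 4 each).

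PPAR response genes gave 3 higher and 1 lower of 5 tested in RT112 under siFOXA1.1, with a list median of 0.70 beside -0.01 over all genes, of which 32.6% passed. FABP4, a fatty acid carrier, went from 404 to 530 CPM in the controls to 56.1 and 60.1, and it fell by 2.88 in log2 units (SE 0.15, edgeR adjusted p 2.27e-10), while under siFOXA1.2 it had 396 and 523 CPM. ACADVL and CPT1A, enzymes of fatty acid oxidation, rose by 0.87 and 0.71. Between siControl.1 and siControl.2 these differed by 0.64 (SE 0.16, edgeR adjusted p 0.0433) and 0.98 (SE 0.29, adjusted p 0.0891). In SCaBER, where FABP4 had no count in any library, 2 of 7 tested genes passed, both higher, beside 9.26% of all genes. ANGPTL4, a secreted lipase inhibitor, had 0.166 to 3.25 CPM in the controls and 10.6 and 26.1 under siFOXA1.1.

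Vitamin D enzymes and response genes gave 2 higher and 1 lower of 4 tested in RT112 under siFOXA1.1, beside 32.6% of all genes. KLK6, a secreted protease, rose by 2.02 (SE 0.23, edgeR adjusted p 3.25e-06) and THBD, thrombomodulin, fell by 1.37 (SE 0.42, adjusted p 0.0167). The control siRNAs of RT112 differed by -0.81 for KLK6 (SE 0.29, edgeR adjusted p 0.197) and by -1.36 for THBD (SE 0.44, adjusted p 0.139). The other that rose was CYP27B1, which makes calcitriol, at 0 to 2.50 CPM in the controls and 5.6 and 8.35 under siFOXA1.1, named after its values were seen (edgeR adjusted p 0.03). In SCaBER THBD was the 1 of 5 that passed, where 9.26% of all genes did. It fell by 0.99 (SE 0.27, edgeR adjusted p 0.0352), beside -0.81 (SE 0.30, adjusted p 0.623) between the SCaBER control siRNAs. KLK6 had a value of -3.13 in SCaBER under siFOXA1.1 (SE 1.18, edgeR adjusted p 0.122), at a mean of 21.4 counts. Its change under siFOXA1.1 was higher in RT112 than in SCaBER by 5.06 (SE 0.74, edgeR adjusted p 0.000804).

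Of the glucocorticoid lists, the response genes gave 1 higher and 1 lower of 9 in RT112 under siFOXA1.1. DUSP1, a kinase phosphatase, rose by 1.90 (SE 0.64, edgeR adjusted p 0.0297), and GLUL, glutamine synthetase, fell by 1.05 (SE 0.19, adjusted p 0.000405). CEBPD, a stress-responsive factor, was the 1 of 9 that passed in SCaBER under siFOXA1.1, beside 9.26% of all genes. It had 208 ± 9.20 CPM in the controls and 110 ± 16.7 under siFOXA1.1. The chaperones and steroid enzymes gave 4 lower and 1 higher of 7 in RT112, beside 32.6% of all genes. Of the 7, 2 passed between the RT112 control siRNAs, beside 2.36% of all genes. STIP1 and FKBP4, which help load the receptor on HSP90, fell by 0.75 and 0.70, PTGES3 by 0.39, and HSP90AB1, named after its values were seen, by 0.28. Between siControl.1 and siControl.2, PTGES3 differed by -0.40 (SE 0.13, edgeR adjusted p 0.134) and HSP90AB1 by -0.41 (SE 0.09, adjusted p 0.0224). HSP90AA1, also named after its values were seen, differed there by -1.29 (SE 0.10, edgeR adjusted p 7.73e-07). Between the SCaBER controls it differed by -0.98 (SE 0.16, edgeR adjusted p 0.0363). HSD11B2, which inactivates cortisol, rose by 1.70 (SE 0.52, edgeR adjusted p 0.018). None of 6 passed in SCaBER under siFOXA1.1, beside 9.26% of all genes.

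**Figure D4:**
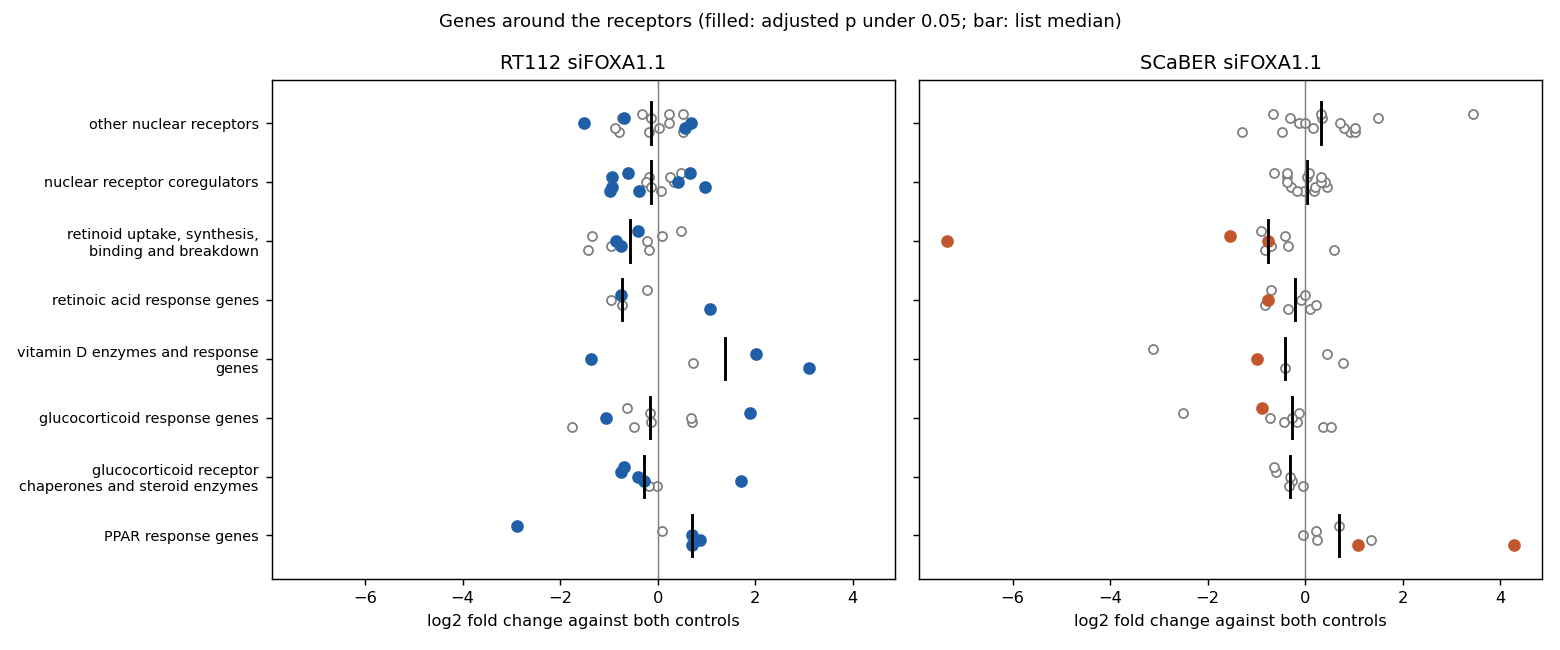
Log2 fold change under siFOXA1.1 against both controls for the tested genes of 8 lists in RT112 (left) and SCaBER (right), with the list median as a bar and genes of adjusted p under 0.05 filled. The widest point at the left of SCaBER is DHRS9, which had 0 counts under siFOXA1.1 so that its position is no measured fold, and FABP4 in RT112 lies at -2.88.

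The genes whose profile was most like that of a changed receptor were named over the 16 libraries, after subtraction of each line's mean from log2 CPM, among 10685 genes tested in both lines. Nearest to RXRA were EPHA4 (Pearson r 0.92), RPS12 (0.893) and DMAC1 (0.889). Nearest to NR2F2 were PRNP (0.884), C11orf24 (0.879) and TNRC6A (0.875), and nearest to VDR were FZD4 (0.865), MLH3 (0.831) and ZNF175 (0.728). PRNP had 55.4 ± 8.51 CPM in the RT112 controls, 22.2 ± 3.85 under siFOXA1.1 and 108 ± 2.93 under siFOXA1.2. These correlations share their libraries, depth and siRNAs and are a description only. Between the receptors themselves r ran from -0.395 for RARG and VDR to 0.594 for RARG and NR2F6.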

How the data were processed

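RNA from 16 libraries was sequenced with a 3' mRNA kit. Per the deposited configuration, the authors trimmed reads with TrimGalore 0.6.2 (minimum quality 20, minimum length 10), aligned them to hg38 with STAR 2.6.1a and counted genes of GENCODE 29. The study's text gives hg19 and 10 ng of siRNA, the labels hg38 and 10 nM. The authors deposited raw counts per gene and TPM values (counts per length, scaled to 1 total in every library). No molecular identifiers are given, so floors of 3 counts cover counting error alone.

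Here the counts were fitted per line with edgeR 4.0.16 in R 4.3.3 (TMM, filterByExpr by line and target, quasi-likelihood F test, Benjamini-Hochberg adjustment over all genes, threshold 0.05), with 1 mean per siRNA. Both siFOXA1 comparisons in a line share the same controls. The line comparison used the 8 siControl libraries, and line differences all 16. Standard errors were the log2 fold change divided by the root of F. Alternatives were DESeq2 1.42.0, library totals, no filter, a replicate block, limma 3.58.1 on log2(TPM + 1) and each library left out. The fits were checked on simulated data.

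The replicate numbers mark experiment batches in the labels and so pair libraries. Deviations of same-numbered libraries correlated at -0.0184 to 0.0136 in RT112 and 0.0187 to 0.2 in SCaBER. Nothing states that replicates were separate cultures, so p-values measure the spread between these libraries. The members and lists were chosen with earlier results of these data known. Named genes were the members, FOXA1, up to 4 genes per list and siRNA comparison with the largest change past the threshold and a mean of at least 20 counts, and the 3 most alike genes per changed member. Positions and sequences are from RefSeq on GRCh38.p14. Some genes of the lists are counted but not reported here by name.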

Additional observations from a re-analysis of the deposited data

Results flagged for a closer look

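RARB in RT112 siFOXA1.1 replicate 1 stood apart from the other 3 siFOXA1 libraries of its line, with 1.9 CPM (13 counts) against 0, a gap as wide as the whole range of the group. Groups of 4 libraries per line and target were examined for the members and FOXA1, and this was the 1 outlier among 37 groups with any spread. Chance alone would mark about 1 in 20 such groups. Where all other libraries are at 0, any count in 1 library gives a gap of the whole range, so that rate does not describe the RARB group. The difference between the lines in the response to siFOXA1.1 or siFOXA1.2 passed for none of the receptors in edgeR, with 1 unadjusted p under 0.05 for each siRNA, and DESeq2 called 1 receptor, RARA, for siFOXA1.1.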

How the results depend on the processing

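The fall of RXRA under siFOXA1.1 in RT112 passed under all 7 other settings (-1.07 to -0.73) and in all 8 fits that left out 1 library (-1.07 to -0.49). The differences between the lines for NR2F2, RXRA, PPARD and NR3C1 also passed in all of these fits, and 4 to 6 receptors passed there over the other settings. The number of receptors past the threshold under siFOXA1.1 in RT112 fell from 2 to 1 with the replicate block, in which VDR was lost, and with filterByExpr by siRNA group, an alternative added after seeing the data. The block changed no other call. With limma on log2(TPM + 1), the 1 receptor under siFOXA1.2 in RT112 became 0, and NR2F2 kept its direction at 0.53 (adjusted p 0.085). With DESeq2 the count in SCaBER under siFOXA1.1 became 1, as did that of the line difference under siFOXA1.1, both through RARA. When single libraries were left out there were 1 to 2 receptors for siFOXA1.1 in RT112, 0 to 1 for siFOXA1.2 in RT112 and 0 to 1 for the line difference under siFOXA1.1. VDR under siFOXA1.1 ranged from 0.15 to 1.19 over those fits and was not called with library totals (0.64, adjusted p 0.103) or limma on TPM (0.34, adjusted p 0.452), which calls RARG (-0.60) and NR2F2 (-0.50) lower. Among the values of single receptors, 1564 kept their direction and side of the threshold, 98 that were never called changed sign, 13 gained a call and 13 lost one. The cause of these shifts was not tested. Counts were low for RARA (2 to 112 per library) and for PPARD in SCaBER (39 to 113). Scaling moved the median of all genes under siFOXA1.1 in RT112 from -0.01 to -0.14 with library totals (36.9% of calls higher, against 47.9% with TMM) and to -0.29 with limma on TPM (21.3%), and that between the lines to -0.32 (28.6%, against 48.9%). Over all genes, DESeq2 called 430 in place of 245 for siFOXA1.2 in RT112, 468 in place of 283 between its controls, 966 in place of 577 between the siFOXA1 siRNAs of SCaBER and 781 in place of 430 for the line difference under siFOXA1.1, for which no filter gave 732. For siFOXA1.2 in RT112, no filter gave 376 and limma on TPM 72. Limma on TPM gave 78 between the RT112 controls, where no filter gave 449, and 276 between the siFOXA1 siRNAs of SCaBER. For the pooled siRNAs of RT112 the 13 genes became 170 with DESeq2, 123 with no filter, 5 with library totals, 4 with limma and 0 with the replicate block, and for SCaBER the 1 gene became 37, 213, 1, 2 and 0. For siFOXA1.2 in SCaBER the 5 genes became 23 with DESeq2, 42 with no filter and 1 with limma. Between the SCaBER controls the 8 became 75, 91 and 0, and 35 with the block, and for the line difference under siFOXA1.2 the 6 became 30, 66 and 0.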
